A study of Mus musculus with 25 samples.

Results

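The livers of old mice that had been joined to a young Manf-heterozygous mouse were set against the livers of old mice joined to another old mouse. These are 10 of the 25 liver libraries of the series: the 5 columns of old mice with heterozygous partners and the 5 columns of old mice with old partners. All mice were C57BL/6, and every mouse had been joined to a partner for 5 weeks. Parabiosis is surgery that joins a pair of mice so that blood passes between them. The old mice of every group were wild type (WT) and 21 months old, so the heterozygous allele was carried only by the young partner. The first group, called heterozygous-partner livers here, came from old WT mice with a young ManfHet partner 5 months old (O_YgHet, n = 5). The second, called old-partner livers, came from old WT mice joined to old mice (O-O, n = 5). A further group of old WT mice with a young WT partner 5 months old (O_YgWT, n = 5, called WT-partner livers) is used below to show where the heterozygous partner differed from a WT one. The design text gives 5 animals per condition. The partners within a pair are not matched there, and it does not say whether any of the old-partner livers came from the same pair, and the labels give neither the sex of the mice nor the hour of collection.

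MANF is a small protein of the endoplasmic reticulum (ER) that is made in response to misfolded protein and is also secreted, and it is known for limiting inflammation. In joined mice the partner's plasma and blood cells reach the liver, while hepatocytes and most resident liver cells remain the host's own. The liver makes cholesterol through the mevalonate pathway, whose enzymes are switched on by the transcription factor SREBP2 when sterols in the ER run low, and it holds a large population of resident macrophages, the Kupffer cells, along sinusoids lined by endothelium and stellate cells.

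Values are the authors' RPKM, read number per kilobase of gene, divided by the library's read total. Each log2 difference is of RPKM + 0.5 and is given ± SE from limma, with p adjusted by Benjamini-Hochberg over all 9372 genes that had at least 1 RPKM in at least 5 libraries. It understates the change of genes with low RPKM. A gene is said to have risen or fallen where its adjusted p was under 0.05. The libraries rested on 21.8 to 27.59 megareads in heterozygous-partner livers and 22.84 to 24.21 megareads in old-partner livers, as recovered from the spacing of the low values. Albumin (Alb) alone took 5.77 to 12.22% of the reads in heterozygous-partner livers and 4.41 to 7.57% in old-partner livers. Because an RPKM is a share of the library, the comparison was made both as deposited and after median-of-ratios scaling, which divides each library by the median ratio of its genes to their typical level. The factors were 0.873 to 0.995 in heterozygous-partner livers and 1.01 to 1.096 in old-partner livers. Genes of the hepatocyte list were abundant in all 10 livers, with a summed level of 49000 to 79400 RPKM in heterozygous-partner livers and 43600 to 58500 RPKM in old-partner livers. The 10 skeletal muscle markers summed to at most 0.837 RPKM in heterozygous-partner livers and 1.25 RPKM in old-partner livers, and of 11 exocrine pancreas markers 7 were at 0 in all heterozygous-partner livers and 9 in all old-partner livers. In WT-partner livers, used further below, the skeletal muscle markers summed to 0.915 RPKM at the median and to 211 RPKM in replicate 4.

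Libraries that stood apart bear on many of the results. Markers of macrophages and MHC class II presentation were highest in old-partner replicate 4, and markers of macrophages, stellate cells and endothelium were lowest in heterozygous-partner replicate 4. Summed over 18 Kupffer cell markers, the lowest, median and highest levels were 120, 293 and 335 RPKM in heterozygous-partner livers and 387, 537 and 1110 RPKM in old-partner livers. None of those 18 markers was at 0 throughout either group. Both libraries numbered 4 are therefore left out in a further count beside the gene lists below that were set against old-partner livers. These livers are not partners, since they come from different kinds of pairs, and livers with the same number in both groups did not deviate together. Among old-partner livers, replicate 3 was the lowest in cholesterol synthesis genes and replicate 2 the highest in major urinary protein genes, and among heterozygous-partner livers replicate 2 was the highest in cholesterol synthesis genes.

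**Figure D1:**
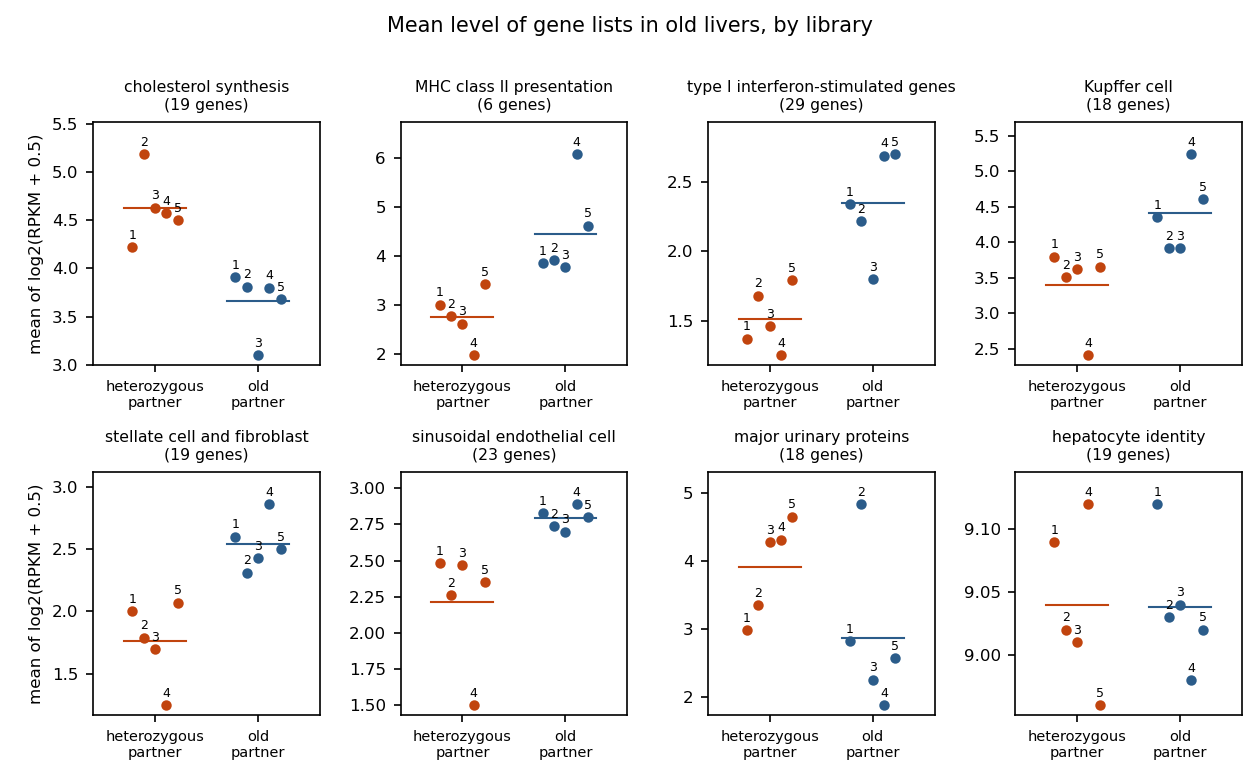
Mean of log2(RPKM + 0.5) over the tested members of 8 gene lists in each liver, with heterozygous-partner livers at left and old-partner livers at right in each panel. Numbers are replicates and lines are group means. Cholesterol synthesis lies at 4.22 to 5.18 in heterozygous-partner livers and 3.10 to 3.91 in old-partner livers, Kupffer cell markers at 2.41 to 3.80 and 3.92 to 5.24, and the hepatocyte list at 8.96 to 9.12 and 8.98 to 9.12.

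As deposited, 85 of 9372 genes rose in heterozygous-partner livers (0.907%) and 2126 fell (22.7%). After scaling, 331 rose (3.53%) and 604 fell (6.44%). The median log2 difference of all genes was -0.14 as deposited and 0.01 scaled. The 604 genes that fell after scaling had all fallen as deposited, 84 rose both ways, and 0 were called in opposite directions. Without overlap between the groups, 43 genes were higher (0.459%) and 1148 lower (12.2%) in the 5 heterozygous-partner livers as deposited, and 286 (3.05%) and 469 (5%) scaled. Without both libraries numbered 4, 18 genes rose and 419 fell as deposited. All 437 of them were among the 2211 called with every library. With both left out, 0 rose and 6 fell scaled, with 686 higher and 802 lower at an unadjusted p under 0.05. The smallest adjusted p of a higher gene was then 0.0614. A scaled count of 0 without both libraries, as given for many lists below, is thus shared by nearly all genes and not particular to a list. The 6 were Adgre5, D930048N14Rik, Ifi203, Pilrb1, Etv5 and the B cell gene Cd79a.

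Manf itself, on chromosome 9 (106838312 to 106891979, mm10, GENCODE M21), was read in heterozygous-partner livers at 8.35, 6.52, 4.95, 6.24 and 9.52 RPKM. In old-partner livers it was at 9.64, 9.89, 12.1, 5.9 and 6.72 RPKM. The groups overlapped. The log2 difference was -0.29 (exact two-sided permutation p = 0.262, where 5 against 5 livers can give 0.00794 at the least) and -0.13 scaled (exact p = 0.651). These are WT livers, so the value does not check the genotype of the partner.

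Genes of cholesterol synthesis rose together, and none of them fell. Of 20 genes in the list 19 were tested and 15 rose as deposited, against 0.907% of all genes. After scaling 17 rose, against 3.53% of all genes. Their median log2 difference was 0.82 as deposited and 0.99 scaled, beside -0.14 and 0.01 over all genes. As deposited, 14 were higher without overlap between the groups, against 0.459% of all genes. The gene not tested, Fdps, was read at 0.219 to 1.41 RPKM, and near-identical pseudogenes make its value uncertain. Promoters of a pair of these genes are shown, since the genes moved together: the 160 bases before the RefSeq start (GRCm38.p6), in the gene's direction, with Hmgcs1 at chr13:119690191-119690350 and Idi1 at chr13:8885446-8885605, both on the plus strand. Capitals mark the sterol regulatory element TCACNCCAC in Hmgcs1, 137 bases before the start, and the CCAAT-type motif CCAATCAG in Idi1, which lies on the opposite strand 48 bases before the start.
Hmgcs1: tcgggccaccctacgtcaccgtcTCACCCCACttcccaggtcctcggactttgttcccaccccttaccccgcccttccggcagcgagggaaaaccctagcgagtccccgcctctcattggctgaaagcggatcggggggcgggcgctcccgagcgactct
Idi1: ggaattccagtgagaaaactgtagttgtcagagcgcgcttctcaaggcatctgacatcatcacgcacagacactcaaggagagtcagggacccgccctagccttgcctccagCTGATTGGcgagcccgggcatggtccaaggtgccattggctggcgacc
Searched on both strands of the 250 bases before each start, TCACNCCAC was in 346 of 32851 promoters (1.05%), in 107 of 7386 promoters of tested genes (1.45%) and in 1 of 15 cholesterol synthesis promoters. CCAATCAG was in 435 of 7386 promoters of tested genes (5.89%) and in 6 of 15 cholesterol synthesis promoters, those of Mvk, Idi1, Lss, Tm7sf2, Ebp and Sc5d. A match is a run of letters, not a measured site.

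The first steps of the pathway make mevalonate. Hmgcs1, which encodes cytosolic HMG-CoA synthase, was at 39.2, 149, 61, 60.7 and 62.1 RPKM in heterozygous-partner livers and at 31, 31.2, 18.1, 31.4 and 25.6 RPKM in old-partner livers. Every heterozygous-partner liver was above every old-partner liver, with replicate 2 far above its group (log2 1.30 ± 0.34, adjusted p = 0.00995). The next steps turn mevalonate into isoprene units. Mvd, which decarboxylates mevalonate diphosphate, averaged 9.50 ± 4.38 RPKM in heterozygous-partner livers and 3.00 ± 1.06 RPKM in old-partner livers (SD, n = 5 each; 1.49 ± 0.35, adjusted p = 0.00523). Idi1, the isomerase of isoprene diphosphates, averaged 18.9 ± 7.67 RPKM in heterozygous-partner livers and 6.58 ± 2.44 RPKM in old-partner livers (1.48 ± 0.37, adjusted p = 0.00778). Pmvk, a kinase of the same stretch, averaged 34.0 ± 5.27 RPKM in heterozygous-partner livers and 17.3 ± 4.67 RPKM in old-partner livers (adjusted p = 0.0125), while Mvk had a log2 difference of 0.55 ± 0.21 with an adjusted p = 0.0583.

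Squalene and sterol steps rose as well. Fdft1, squalene synthase, was at 37.6, 65.2, 46.4, 40.3 and 37.3 RPKM in heterozygous-partner livers and at 27.9, 25.7, 23.4, 29.6 and 24.6 RPKM in old-partner livers, without overlap (0.75 ± 0.22, adjusted p = 0.0179). Sqle, the squalene epoxidase, was at 7.52, 25.8, 11.7, 14.2 and 8.59 RPKM in heterozygous-partner livers and at 3.93, 5.34, 0.916, 3.59 and 4.44 RPKM in old-partner livers. Its groups did not overlap, and old-partner replicate 3 was the lowest of the 10 (1.77 ± 0.48, adjusted p = 0.0113). Cyp51, the lanosterol demethylase, was at 28, 48.8, 31.7, 37.3 and 27 RPKM in heterozygous-partner livers and at 14.2, 14.3, 6.16, 15.1 and 13.6 RPKM in old-partner livers, again without overlap (1.44 ± 0.30, adjusted p = 0.00329). Msmo1 and Nsdhl, which act together in removing methyl groups from the sterol ring, rose by 1.25 ± 0.31 (adjusted p = 0.00775) and 1.44 ± 0.36 (adjusted p = 0.00762). Tm7sf2, a sterol reductase, averaged 27.8 ± 3.15 RPKM in heterozygous-partner livers and 15.8 ± 3.80 RPKM in old-partner livers (0.82 ± 0.18, adjusted p = 0.00362). The late enzyme genes Ebp and Sc5d did not pass as deposited, at 0.15 ± 0.11 and 0.50 ± 0.19. Old-partner replicate 3 stood well below the rest of its group in Sqle, Cyp51 and Nsdhl.

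**Figure D2:**
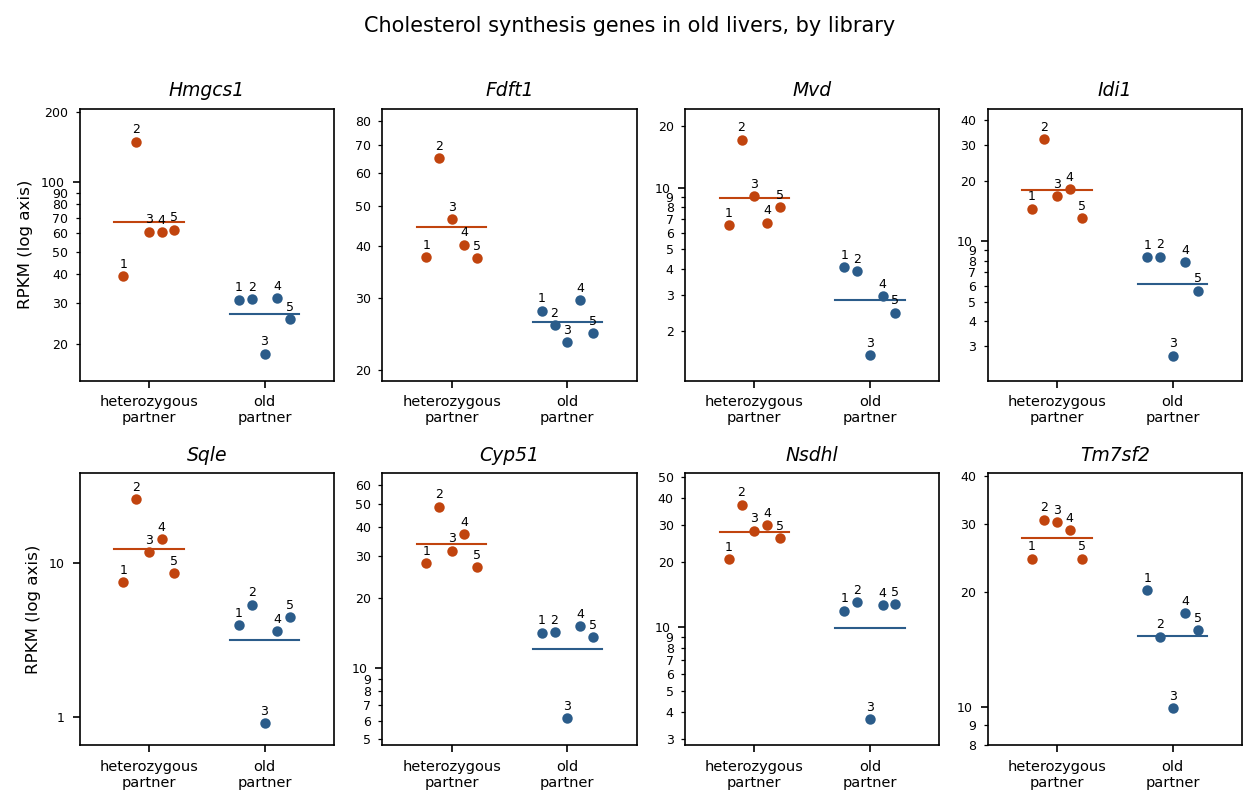
RPKM (log axis) of 8 cholesterol synthesis genes in each liver, with heterozygous-partner livers at left and old-partner livers at right in each panel. Numbers are replicates and lines are geometric means. In each panel shown the 5 heterozygous-partner livers lie above the 5 old-partner livers, as for Sqle with 7.52 to 25.8 RPKM against 0.916 to 5.34 RPKM.

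The rise of the cholesterol list was smaller in number without both libraries numbered 4: 8 of 19 rose as deposited and 0 scaled, while the median log2 difference was 0.86 and 0.99. Leaving out any single library left 12 to 16 genes higher as deposited and 12 to 19 scaled. Cyp51 (1.48, adjusted p = 0.0233) and Tm7sf2 (0.86, adjusted p = 0.0251) passed as deposited without both libraries, and Sqle did not (1.75, adjusted p = 0.0668). Non-parenchymal markers described below were lower in the same livers, and their part in the cholesterol result was not tested.

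Other SREBP2 targets and the sensors around it moved in part. Of 14 tested genes of sterol uptake and SREBP control 4 rose and 1 fell as deposited, and 7 rose and 0 fell scaled. Of all genes 0.907% rose and 22.7% fell as deposited, and 3.53% rose and 6.44% fell scaled. Stard4, a cytosolic sterol carrier, was at 26.1, 30.2, 32.8, 24.6 and 27.2 RPKM in heterozygous-partner livers and at 18.6, 20.6, 15.7, 18.4 and 18.6 RPKM in old-partner livers, without overlap (0.60, adjusted p = 0.0095). Tmem97, the sigma-2 receptor, rose by 0.57 (adjusted p = 0.00347), also with no overlap. Rdh11, a retinol dehydrogenase in the same list, rose by 1.07 (adjusted p = 0.00662), and Mylip, a ubiquitin ligase gene under the oxysterol receptor LXR, fell by 0.53 ± 0.16 (adjusted p = 0.0199) as deposited and not scaled (adjusted p = 0.104). Those that did not pass as deposited include the SREBP retention gene Insig1 (0.39, adjusted p = 0.0753), Srebf2, which encodes SREBP2 (0.22, adjusted p = 0.153), and Scap, its escort (0.24, adjusted p = 0.152). Without both libraries numbered 4, the count of higher genes was 4 as deposited and 0 scaled.

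Genes of fatty acid synthesis rose in part, beside 0.907% of all genes as deposited and 3.53% scaled. Of 22 tested lipogenesis genes 6 rose as deposited and 9 scaled, with medians of 0.39 and 0.56. Thrsp, a lipogenic nuclear protein, was at 26.2, 36.5, 30.4, 31.3 and 56.4 RPKM in heterozygous-partner livers and at 13, 39.8, 3.68, 6.07 and 15.8 RPKM in old-partner livers. Old-partner replicate 2 lay within the other group (1.56 ± 0.46, adjusted p = 0.019). Acss2, which makes acetyl-CoA from acetate, was at 12.9, 27.9, 24.2, 18.7 and 27.6 RPKM in heterozygous-partner livers and at 9.36, 11.2, 6.16, 11.5 and 12.8 RPKM in old-partner livers, without overlap (1.07 ± 0.33, adjusted p = 0.0212). Acacb (adjusted p = 0.041), Pklr (adjusted p = 0.047), the elongase gene Elovl6 (adjusted p = 0.0363) and the desaturase gene Fads2 (adjusted p = 0.0394) were the others that rose. The central enzyme genes Fasn (0.75 ± 0.28, adjusted p = 0.0511), Acly (0.44 ± 0.29) and Scd1 (0.34 ± 0.31) and the regulator Srebf1 (-0.18 ± 0.19) did not pass. As deposited, none of the 22 rose without old-partner replicate 3, and none without both libraries numbered 4. A model of only the groups compared called 1 higher as deposited and 1 scaled.

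Sterol export genes, targets of LXR, fell in single cases. Of 11 genes 3 fell as deposited and 2 scaled, and 0 rose, against 22.7 and 6.44% of all genes that fell, and the list's median was -0.24 and -0.07. Without both libraries numbered 4, 2 fell as deposited and 0 scaled. Abcg1, a cholesterol exporter also abundant in macrophages, was at 1.14, 1.01, 1.08, 0.346 and 1.04 RPKM in heterozygous-partner livers and at 1.62, 1.7, 1.85, 2.94 and 2.33 RPKM in old-partner livers. The groups did not overlap and both libraries numbered 4 were the extremes (-0.88 ± 0.16, adjusted p = 0.002, and -0.59, adjusted p = 0.0201 without them). Scarb1, the hepatic HDL receptor, was at 14, 13.5, 11, 10.7 and 16.1 RPKM in heterozygous-partner livers and at 22.5, 16.5, 19.7, 18.8 and 21.1 RPKM in old-partner livers (-0.58 ± 0.12, adjusted p = 0.00266). Nr1h3, which encodes LXR alpha, fell by 0.37 as deposited (adjusted p = 0.0089) and did not pass scaled (adjusted p = 0.105).

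Drug and bile acid metabolism rose in a few members, beside 0.907% of all genes as deposited and 3.53% scaled. Of 28 genes under the xenobiotic receptors CAR and PXR 6 rose as deposited and 9 scaled, with medians of 0.41 and 0.53, and 0 rose without both libraries numbered 4. Cyp1a2, a caffeine-metabolising cytochrome, was at 186, 185, 193, 209 and 183 RPKM in heterozygous-partner livers and at 84.9, 96.7, 105, 89.5 and 188 RPKM in old-partner livers. Old-partner replicate 5 lay among the heterozygous-partner livers and the other 4 well below (0.82 ± 0.21, adjusted p = 0.00887). Cyp2c29 rose by 0.56 ± 0.13 (adjusted p = 0.00472) and the glucuronosyltransferase gene Ugt1a5 by 1.59 ± 0.43 (adjusted p = 0.0113), both from families whose near-identical copies share reads. Among 18 bile acid genes 2 rose and 1 fell as deposited, and 6 rose scaled. Slc10a1, which takes bile acids up from the blood, was at 283, 402, 366, 321 and 300 RPKM in heterozygous-partner livers and at 218, 301, 205, 179 and 264 RPKM in old-partner livers, where replicate 2 reached the other group (0.53, adjusted p = 0.0111). Slco1a1, an organic anion importer, was at 45.7, 45.9, 38.2, 67.5 and 55.1 RPKM in heterozygous-partner livers and at 14.2, 51, 10.7, 12.2 and 30.6 RPKM in old-partner livers, where replicate 2 reached the other group (1.31 ± 0.35, adjusted p = 0.0109). No bile acid gene was higher either without both libraries numbered 4.

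Mup genes, which encode the pheromone-binding major urinary proteins, varied widely between livers. Of 21 genes 18 were tested and 3 rose as deposited (2 scaled), beside 0.907 and 3.53% of all genes, with a median of 1.05. Mup1 was at 8.04, 13.2, 30.2, 48.1 and 22.9 RPKM in heterozygous-partner livers and at 2.52, 17.2, 0.991, 0.475 and 2.49 RPKM in old-partner livers (2.82 ± 0.75, adjusted p = 0.0106). Old-partner replicate 2 stood above the lowest pair of heterozygous-partner livers and the other 4 old-partner livers below them all. Mup12 rose by 2.24 ± 0.66 (adjusted p = 0.0183) and Mup11 by 2.10 (adjusted p = 0.0466), and Mup20, a male pheromone, did not pass (-0.85, adjusted p = 0.0647). The count was 1 to 11 over the omissions of a single library and 0 without both libraries numbered 4, where Mup1 was at 2.12 (adjusted p = 0.116). Reads of these copies cannot be assigned with certainty. Among 10 female-biased liver genes, whose median was 1.03, 1 rose, Cyp2c69, which averaged 14.9 RPKM in heterozygous-partner livers and 4.33 RPKM in old-partner livers (1.62 ± 0.55, adjusted p = 0.0368). Of 17 male-biased genes 2 rose, Slco1a1 and Susd4 (0.87, adjusted p = 0.00775). Scaled, 1 of 10 female-biased and 2 of 17 male-biased genes rose, beside 3.53% of all genes (0.907% as deposited). Both of these lists had 0 genes higher without both libraries numbered 4.

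Hepatocyte identity genes were not called in either direction as deposited (0 of 19; 1 higher scaled), and their median was 0.02. Alb was at 49600, 52200, 40400, 47100 and 24600 RPKM in heterozygous-partner livers and at 24200, 29800, 18800, 22500 and 32300 RPKM in old-partner livers. Heterozygous-partner replicate 5 lay within the other group and the rest of its group above it (0.72 ± 0.27, adjusted p = 0.0531). Pericentral genes rose in 3 of 12 cases as deposited and 5 scaled, beside 0.907 and 3.53% of all genes, and in 0 without both libraries numbered 4, while 0 fell. Of 17 periportal and urea cycle genes 0 rose and 2 fell as deposited, where 22.7% of all genes fell. These were Hal, which degrades histidine (-0.79, adjusted p = 0.00379), and Aldh1b1 (adjusted p = 0.0336), and 1 fell without both libraries numbered 4. Of 18 genes of gluconeogenesis and glucose handling 0 were called. Of 27 targets of PPARA and fatty acid oxidation 1 rose as deposited, Angptl4, an inhibitor of lipoprotein lipase (0.79 ± 0.29, adjusted p = 0.0472), and 6 scaled, with 0 either way without both libraries numbered 4.

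All tested genes of MHC class II presentation fell. The list has 10 genes, of which 6 were tested and 6 fell as deposited and scaled, against 22.7 and 6.44% of all genes, with medians of -1.77 and -1.61. With only the groups compared in the model, 6 fell as deposited and 0 scaled. In bulk RNA fewer cells of a type and less RNA per cell cannot be told apart. H2-Aa and H2-Eb1, the alpha chain of I-A and the beta chain of I-E, share the motif CCAATCAG, marked in capitals on the opposite strand 51 and 62 bases before the start in the 160 bases shown, H2-Aa from chr17:34287824-34287983 on the minus strand and H2-Eb1 from chr17:34305707-34305866 on the plus strand (GRCm38.p6, RefSeq starts).
H2-Aa: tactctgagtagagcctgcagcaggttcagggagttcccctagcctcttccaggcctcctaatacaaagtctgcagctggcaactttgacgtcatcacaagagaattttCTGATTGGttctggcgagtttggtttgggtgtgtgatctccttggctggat
H2-Eb1: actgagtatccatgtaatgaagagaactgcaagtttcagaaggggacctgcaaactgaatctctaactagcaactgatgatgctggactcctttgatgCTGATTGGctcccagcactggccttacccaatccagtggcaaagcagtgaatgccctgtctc
The motif was in 2 of 4 class II promoters with a window. H2-Aa was at 11.1, 9.54, 8.06, 4.21 and 15.6 RPKM in heterozygous-partner livers and at 21.8, 23.6, 21.2, 118 and 38.9 RPKM in old-partner livers. No heterozygous-partner liver reached the lowest old-partner liver, and old-partner replicate 4 was far above its group (-1.90 ± 0.45, adjusted p = 0.00533). Cd74, the invariant chain, was at 32.6, 29.2, 24.2, 14.9 and 48.6 RPKM in heterozygous-partner livers and at 65.1, 66.4, 58.8, 330 and 112 RPKM in old-partner livers (-1.81 ± 0.43, adjusted p = 0.00531). H2-Ab1 (-1.77 ± 0.43), H2-Eb1 (-1.77 ± 0.46) and the peptide-loading genes H2-DMa (-1.38, adjusted p = 0.00386) and H2-DMb1 (-1.46, adjusted p = 0.00374) fell too. The median was -1.16 as deposited without both libraries numbered 4, and 2 of 6 passed, H2-DMa (adjusted p = 0.0429) and H2-DMb1 (adjusted p = 0.0396). H2-Aa was then at -1.21 (adjusted p = 0.0741) and Cd74 at -1.15 (adjusted p = 0.0707), and 0 of 6 passed scaled. Ciita, the class II transactivator, was below the filter, as were H2-DMb2, H2-Oa and H2-Ob.

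MHC class I and immunoproteasome genes fell only as deposited. Of 18, 9 fell as deposited and 0 scaled, against 22.7 and 6.44% of all genes, with medians of -0.36 and -0.20. As deposited, 2 fell without heterozygous-partner replicate 4, 2 without old-partner replicate 4, and 0 without both. The peptide transporter gene Tap2 fell by 0.58 ± 0.14 as deposited (adjusted p = 0.00744) and did not pass scaled (adjusted p = 0.0521), whereas H2-K1 (-0.10 ± 0.12) and the light chain gene B2m (-0.18 ± 0.10) did not pass.

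Type I interferon-stimulated genes were nearly all lower. Of 34 genes 29 were tested, 28 fell as deposited and 22 scaled, against 22.7 and 6.44% of all genes, with medians of -0.80 and -0.65. A model of only the groups compared called 28 lower as deposited and 5 scaled. Usp18, a brake on interferon signalling, was the 1 that did not pass as deposited in the main fit (-0.68, adjusted p = 0.0615). The promoters of Ifit3 (chr19:34583369-34583528, plus strand) and Isg15 (chr4:156200819-156200978, minus strand) are shown over the 160 bases before the RefSeq start (GRCm38.p6), with capitals on GAAA, any 2 bases and GAAA again, the core of the interferon-stimulated response element. In Ifit3 it lies on the opposite strand 156 and 122 bases before the start, and in Isg15 there are 3 overlapping copies 78 to 66 bases before it.
Ifit3: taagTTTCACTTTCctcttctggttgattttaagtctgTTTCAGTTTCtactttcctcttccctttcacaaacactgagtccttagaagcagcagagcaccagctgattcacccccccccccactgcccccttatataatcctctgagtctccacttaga
Isg15: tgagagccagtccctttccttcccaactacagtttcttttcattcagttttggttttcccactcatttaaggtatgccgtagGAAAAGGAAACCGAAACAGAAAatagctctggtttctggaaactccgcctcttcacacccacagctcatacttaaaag
This motif was, on either strand, in 978 of 32851 promoters (2.98%), in 241 of 7386 promoters of tested genes (3.26%) and in 8 of 20 promoters of this list, those of Ifit1, Ifit3, Isg15, Oas1a, Rsad2, Stat2, Bst2 and Trim30a. Ifit3, which binds viral RNA complexes with its relatives, was at 1.98, 3.61, 2.99, 1.66 and 3.52 RPKM in heterozygous-partner livers and at 8.15, 5.74, 4.02, 12.1 and 10.6 RPKM in old-partner livers. Isg15, a ubiquitin-like modifier, was at 2.44, 5.03, 3.79, 2.94 and 6.49 RPKM in heterozygous-partner livers and at 11.2, 7.65, 6.83, 16.1 and 14.4 RPKM in old-partner livers. For both genes the groups did not overlap, with log2 differences of -1.36 ± 0.28 (adjusted p = 0.00298) for Ifit3 and -1.34 ± 0.27 (adjusted p = 0.00256) for Isg15.

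The sensors and transcription factors of that response were lower as well. Oas1a, an RNA-activated synthetase, was at 0.813, 0.769, 0.833, 0.609 and 0.901 RPKM in heterozygous-partner livers and at 2.5, 2.04, 0.986, 4.52 and 4.23 RPKM in old-partner livers (-1.26 ± 0.25, adjusted p = 0.00227). Irf7, the amplifier of type I interferon, was at 6.7, 7.1, 7.64, 6.16 and 9.85 RPKM in heterozygous-partner livers and at 14.9, 12.5, 7.77, 21.5 and 30.3 RPKM in old-partner livers, where replicate 3 lay within the other group (adjusted p = 0.00541). Ddx58, the RNA sensor RIG-I, was at 2.55, 3.61, 2.71, 2.66 and 3.31 RPKM in heterozygous-partner livers and at 4.39, 4.69, 4.37, 4.3 and 4.39 RPKM in old-partner livers (-0.52 ± 0.10, adjusted p = 0.00212). Stat2, which carries the signal to the nucleus, averaged 8.88 ± 0.45 RPKM in heterozygous-partner livers and 12.1 ± 1.33 RPKM in old-partner livers (SD, n = 5 each; -0.42 ± 0.11, adjusted p = 0.00928) and did not pass scaled (adjusted p = 0.136). Of 29, 12 fell as deposited and 0 scaled without both libraries numbered 4, with a median of -0.58 as deposited. Isg15 (-1.10, adjusted p = 0.0364) and Oas1a (-1.03, adjusted p = 0.029) passed there as deposited.

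Genes induced by interferon gamma and inflammatory signals fell in part, beside 22.7% of all genes as deposited and 6.44% scaled. Of 11 GTPase genes 7 fell as deposited and 4 scaled, with Gbp2 at -1.59 ± 0.44 (adjusted p = 0.0121) and Gbp9 at -1.09 (adjusted p = 0.00298). Of 13 chemokine genes 7 fell as deposited and 3 scaled. Ccl2, which draws monocytes, was at 0.622, 0.159, 0.276, 0.163 and 0.564 RPKM in heterozygous-partner livers and at 1.3, 0.872, 0.98, 10.3 and 1.46 RPKM in old-partner livers, without overlap and with replicate 4 far above its group (-1.52 ± 0.39, adjusted p = 0.0089, and -0.89, adjusted p = 0.0514 without both libraries numbered 4). Ccl6, a macrophage chemokine, fell by 1.28 ± 0.24 (adjusted p = 0.00206, and 0.02 without both), whereas Cxcl9 (-1.56, adjusted p = 0.0504) and Cxcl10 (-1.17, adjusted p = 0.0531) did not pass. Of 13 genes of cytokines and adhesion 7 fell as deposited and 6 scaled. Icam1 (-1.03, adjusted p = 0.00212) and Vcam1 (-1.16, adjusted p = 0.00452), the endothelial anchors of leukocytes, were among them, with Tgfb1 (-0.78, adjusted p = 0.00382) and the interleukin-18 trap gene Il18bp (-0.87, adjusted p = 0.00353). Without both libraries numbered 4, 1 GTPase gene, 2 chemokine genes and 4 cytokine and adhesion genes fell as deposited and 0 scaled. A model of only the groups compared called 1 GTPase gene, 0 chemokine genes and 1 cytokine and adhesion gene lower scaled, and 6, 4 and 6 as deposited.

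Kupffer cell markers fell in 13 of 18 cases both as deposited and scaled, against 22.7 and 6.44% of all genes, with medians of -1.22 and -1.05. In a model of only the groups compared, 11 fell as deposited and 0 scaled. Clec4f, a lectin that in mice marks Kupffer cells, was at 25.2, 23.6, 27.1, 11.4 and 26.1 RPKM in heterozygous-partner livers and at 49.5, 39.8, 30.1, 79.7 and 40.3 RPKM in old-partner livers, without overlap (-1.04 ± 0.22, adjusted p = 0.00298). Adgre1, the F4/80 antigen, was at 4.77, 3.8, 3.57, 0.822 and 3.73 RPKM in heterozygous-partner livers and at 8, 6.26, 5.96, 21.9 and 10 RPKM in old-partner livers. Both libraries numbered 4 were the extremes of the 10 (-1.48 ± 0.37, adjusted p = 0.00787). The complement gene C1qb, made by resident macrophages, was at 33, 27.3, 29.7, 11.3 and 32.3 RPKM in heterozygous-partner livers and at 60, 44.8, 41.2, 119 and 66.7 RPKM in old-partner livers (-1.28 ± 0.28, adjusted p = 0.00356). Vsig4, a complement receptor, fell by 1.28 ± 0.30 (adjusted p = 0.00531), and Hmox1, which degrades haem, by 1.37 ± 0.29 (adjusted p = 0.00347). Timd4, a marker of embryonic Kupffer cells (adjusted p = 0.0968), and Marco (-0.22, adjusted p = 0.838) did not pass. Without both libraries numbered 4, 6 of 18 fell as deposited and 0 scaled, the median was -0.69 as deposited, and Clec4f was at -0.62 (adjusted p = 0.0225).

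Markers of monocytes and lipid-associated macrophages fell in 9 of 11 tested cases both ways, against 22.7 and 6.44% of all genes, with a median of -1.33 as deposited. In a model of only the groups compared, 9 fell as deposited and 4 scaled. Clec7a, the glucan receptor dectin-1, was at 1.24, 1.65, 1.43, 0.618 and 1.97 RPKM in heterozygous-partner livers and at 4.79, 3.66, 3.84, 15 and 4.15 RPKM in old-partner livers, without overlap (-1.69 ± 0.32, adjusted p = 0.00212, and -1.16, adjusted p = 0.0209 without both libraries numbered 4). Lyz2, lysozyme of myeloid cells, was at 48, 34, 37.7, 13.1 and 43.5 RPKM in heterozygous-partner livers and at 86.9, 56.2, 64.6, 260 and 99.9 RPKM in old-partner livers (-1.56 ± 0.37, adjusted p = 0.0058, and -0.88, adjusted p = 0.0734 without both). Lgals3 fell by 1.33 ± 0.26 (adjusted p = 0.00227) and the signalling adaptor gene Tyrobp by 1.37 (adjusted p = 0.00212). Summed over 19 markers the lowest, median and highest levels were 47.3, 95.6 and 111 RPKM in heterozygous-partner livers and 147, 201 and 506 RPKM in old-partner livers. Of 11 tested, 8 fell as deposited and 0 scaled without both libraries numbered 4.

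Blood cell markers were scarce in both groups. Cd79a, part of the B cell receptor, was at 0.755, 0.572, 0.754, 0.229 and 1.13 RPKM in heterozygous-partner livers and at 2.01, 1.66, 2.1, 8.6 and 2.43 RPKM in old-partner livers, without overlap (-1.51 ± 0.27, adjusted p = 0.00172). It passed without both libraries numbered 4 as deposited (-0.98, adjusted p = 0.00494) and scaled (-0.89, adjusted p = 0.0189). Of 5 tested B cell markers 3 fell as deposited, and 3 without both libraries numbered 4, beside 3 and 1 scaled. A model of only the groups compared called 3 lower as deposited and 0 scaled, so Cd79a did not pass there scaled. The 1 tested T and NK cell marker, Nkg7, fell by 1.42 ± 0.45 as deposited (adjusted p = 0.0253) and did not pass scaled (adjusted p = 0.0572). Of 4 neutrophil markers 3 fell as deposited and 0 scaled, and of 6 erythroid genes 1 and 0, beside 22.7 and 6.44% of all genes. Without both libraries numbered 4, 0 genes of these neutrophil, erythroid and T and NK cell lists fell. Red cell transcripts summed to 38.1 to 75.1 RPKM in heterozygous-partner livers and 55.9 to 147 RPKM in old-partner livers. How much of these transcripts came from blood held in the tissue was not tested.

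**Figure D3:**
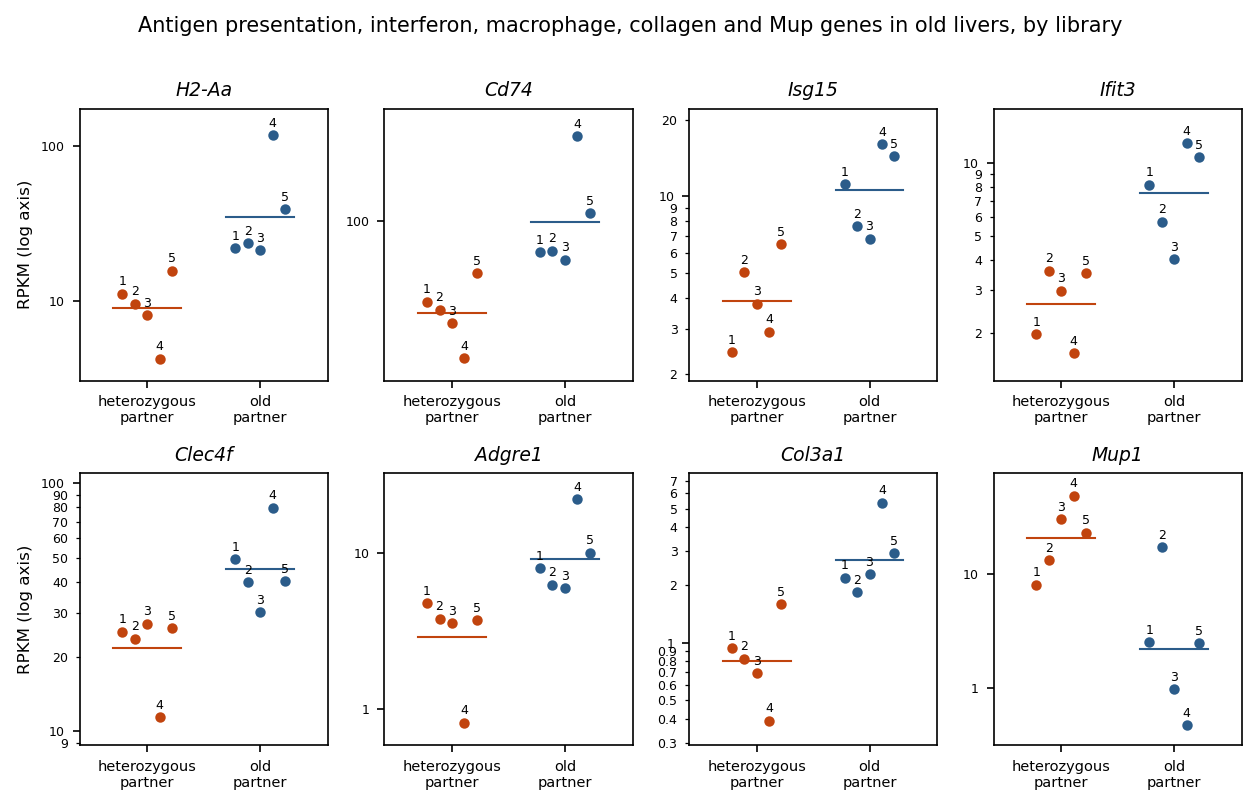
RPKM (log axis) of 8 genes in each liver, with heterozygous-partner livers at left and old-partner livers at right in each panel. Numbers are replicates and lines are geometric means. Old-partner replicate 4 is the highest liver for H2-Aa, Cd74, Adgre1 and Col3a1, heterozygous-partner replicate 4 is the lowest for them, and Mup1 spans 0.475 to 48.1 RPKM over the 10 livers.

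Stellate cell and fibroblast markers fell in 16 of 19 tested cases as deposited and 12 scaled, against 22.7 and 6.44% of all genes, with medians of -0.81 and -0.64. A model of only the groups compared called 16 lower as deposited and 6 scaled. Decorin (Dcn), a matrix proteoglycan, was at 62.1, 50.9, 47, 30.4 and 71.4 RPKM in heterozygous-partner livers and at 103, 82.5, 104, 98.8 and 88.1 RPKM in old-partner livers. Bgn, which encodes biglycan, was at 11.3, 9.23, 8.14, 4.98 and 15.8 RPKM in heterozygous-partner livers and at 22.1, 17.9, 19.9, 24.2 and 19.7 RPKM in old-partner livers. Neither gene had overlap, with log2 differences of -0.91 (adjusted p = 0.00236) for Dcn and -1.12 ± 0.20 (adjusted p = 0.00172) for Bgn. Ngfr (-1.08) and the stellate cell globin gene Cygb (-0.95) fell too. Summed over 26 markers the lowest, median and highest levels were 85.2, 141 and 182 RPKM in heterozygous-partner livers and 217, 265 and 293 RPKM in old-partner livers, and none was at 0 throughout. With both libraries numbered 4 left out, 9 of 19 fell as deposited and 0 scaled, with a median of -0.60 as deposited.

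Collagen genes fell in 7 of 11 tested cases as deposited and 7 scaled, against 22.7 and 6.44% of all genes. A model of only the groups compared called 7 lower as deposited and 4 scaled. In the main scaled fit 1 collagen gene rose. The riser was Col27a1, at 0.63 ± 0.24 as deposited (adjusted p = 0.0606) and 0.76 scaled (adjusted p = 0.0464). Col3a1, a fibrillar collagen, was at 0.937, 0.823, 0.692, 0.392 and 1.59 RPKM in heterozygous-partner livers and at 2.18, 1.83, 2.28, 5.37 and 2.93 RPKM in old-partner livers, without overlap (-1.27 ± 0.22, adjusted p = 0.00172, and -0.91, adjusted p = 0.02 without both libraries numbered 4). Col5a2 was at 0.455, 0.151, 0.164, 0.124 and 0.201 RPKM in heterozygous-partner livers and at 4.94, 0.378, 1.42, 7.22 and 1.89 RPKM in old-partner livers, where replicate 2 lay within the other group (-1.97 ± 0.42, adjusted p = 0.00332). Col1a1 fell by 1.21 (adjusted p = 0.00232) and the basement membrane gene Col4a1 by 1.03 (adjusted p = 0.00173), while Col18a1 was at -0.03 (adjusted p = 0.819). Leaving out both libraries numbered 4 left 5 of 11 lower as deposited and 0 scaled, and 0 higher.

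Sinusoidal endothelial markers fell in 17 of 23 tested cases as deposited and in 7 scaled, against 22.7 and 6.44% of all genes, with medians of -0.58 and -0.43. In a model of only the groups compared, 8 fell as deposited and 0 scaled. The mannose receptor gene Mrc1, shared with macrophages, was at 5.79, 4.46, 6.1, 2.05 and 4.66 RPKM in heterozygous-partner livers and at 8.52, 9.03, 8.07, 10 and 8.61 RPKM in old-partner livers (-0.94 ± 0.19, adjusted p = 0.00256, and -0.66, adjusted p = 0.0209 without both libraries numbered 4). The junction gene Cdh5 (-0.92, adjusted p = 0.00355), the scavenger receptor gene Stab1 (-0.56, adjusted p = 0.00347) and Pecam1 (-0.67, adjusted p = 0.00703) fell, and Clec4g, an endothelial lectin, did not pass (-0.36, adjusted p = 0.104). The 24 markers summed to 73.5, 156 and 173 RPKM (lowest, median, highest) in heterozygous-partner livers and to 189, 210 and 216 RPKM in old-partner livers. Leaving out both libraries numbered 4 left 3 of 23 lower as deposited and 0 scaled. Markers of macrophages, stellate cells and endothelium were thus lower together, and the part of cell number in the immune and matrix results was not tested.

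**Figure D4:**
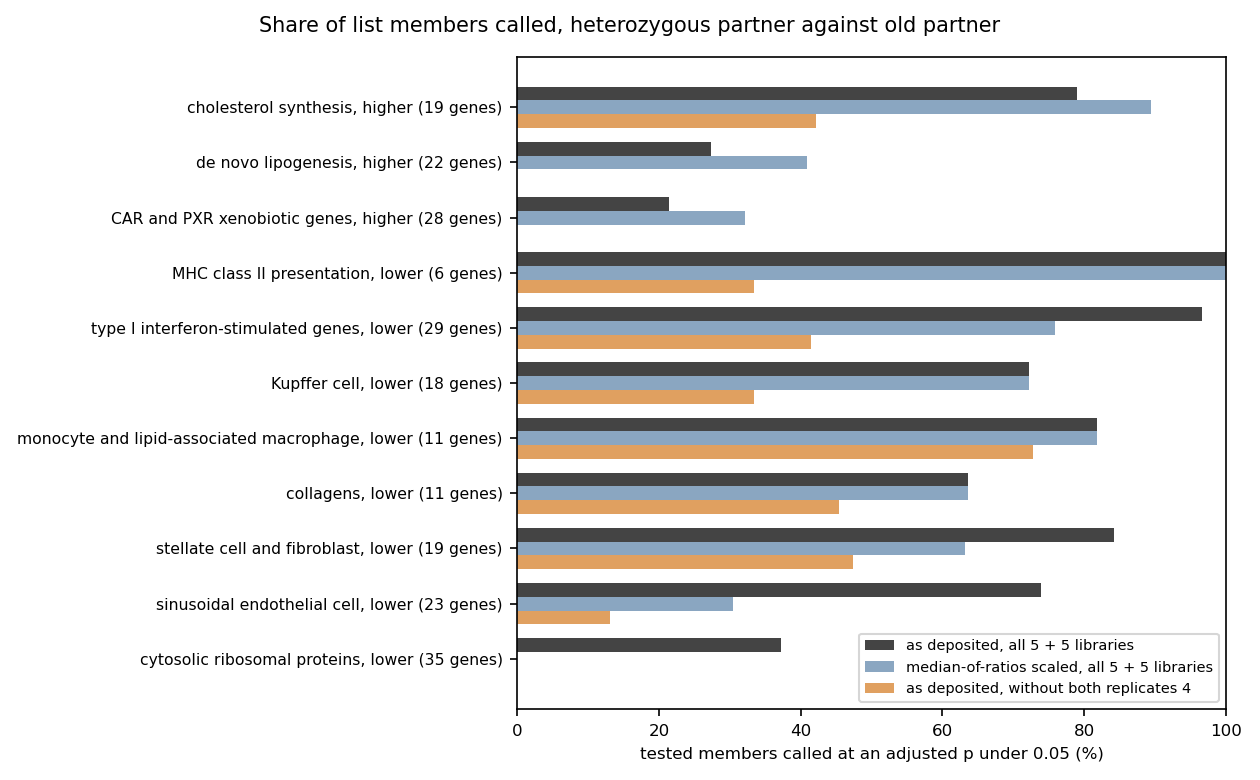
Percent of tested members called at an adjusted p under 0.05 in heterozygous-partner against old-partner livers, in the direction named at left, for 11 lists. Bars give values as deposited, scaled, and as deposited without both libraries numbered 4. Of 29 type I interferon genes 28, 22 and 12 are called, and of 35 ribosomal protein genes 13, 0 and 0.

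Lysosomal and ribosomal protein genes had fewer calls after scaling, where the share of all genes that fell went from 22.7 to 6.44%. Of 19 lysosomal genes 8 fell as deposited and 3 scaled. As deposited, 4 fell where 1 of the libraries numbered 4 was left out and 3 without both. The macrophage cathepsin gene Ctss was at 19.5, 20, 20, 7.72 and 20.9 RPKM in heterozygous-partner livers and at 41.4, 35.9, 33.8, 88 and 51.6 RPKM in old-partner livers (-1.47 ± 0.29, adjusted p = 0.0023). The cathepsin gene Ctsb fell by 0.54 ± 0.10 (adjusted p = 0.00212). Of 35 cytosolic ribosomal protein genes 13 fell as deposited and 0 scaled, with medians of -0.24 and -0.07, and the count was 1 to 31 over the omissions of a single library, with 1 where 1 of the libraries numbered 4 was left out and 0 without both. Of 31 proteasome genes 2 fell and of 34 respiratory chain genes 2 fell as deposited, and after scaling 0 fell and 1 rose in each list. Neither list had a call without both libraries numbered 4.

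Plasma protein and stress markers had few calls in the main fit. Of 22 acute phase genes 2 fell as deposited and 1 scaled, against 22.7 and 6.44% of all genes, and without both libraries numbered 4 these were 1 and 0. The list's medians were -0.52 and -0.35. Without overlap, 6 were lower as deposited and 5 scaled, against 12.2 and 5% of all genes. A model of only the groups compared called 9 lower as deposited and 5 scaled. Saa3, a serum amyloid A made by macrophages and stromal cells, was at 1.1, 1.25, 1.1, 1.63 and 1.2 RPKM in heterozygous-partner livers and at 4.04, 1.97, 6.25, 7.55 and 3.97 RPKM in old-partner livers, without overlap (-1.48 ± 0.26, adjusted p = 0.00172, and -1.37, adjusted p = 0.02 without both libraries numbered 4). The hepatocyte gene Saa1 also had no overlap, at 4.88 to 14.6 RPKM in heterozygous-partner livers and 17.3 to 70.1 RPKM in old-partner livers, and did not pass (adjusted p = 0.166). Hamp, which encodes the iron hormone hepcidin, was at 1080, 315, 837, 299 and 1160 RPKM in heterozygous-partner livers and at 3070, 932, 1790, 2350 and 1120 RPKM in old-partner livers. These overlapped, and Hamp passed as deposited (-1.42 ± 0.47, adjusted p = 0.0325) and not scaled (adjusted p = 0.081). Of 13 growth arrest, p53 target and senescence genes 3 fell as deposited and 1 scaled, where 22.7 and 6.44% of all genes fell. Of 15 growth hormone and IGF genes 2 fell as deposited, and 1 fell and 2 rose scaled. Cdkn1a, the cell cycle inhibitor p21, was at 0.247, 0.245, 0.335, 0.283 and 0.31 RPKM in heterozygous-partner livers and at 1.2, 1.05, 0.483, 2.78 and 0.985 RPKM in old-partner livers, without overlap (-1.08 ± 0.29, adjusted p = 0.0113). Igfbp3, which binds IGF1 in plasma, fell by 1.52 ± 0.36 (adjusted p = 0.00557). Over 10 omissions of a single library, Cdkn1a passed scaled in 4 and Igfbp3 in 7. Neither passed without both libraries numbered 4, at -0.84 (adjusted p = 0.0951) for Cdkn1a and -1.22 (adjusted p = 0.0707) for Igfbp3.

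Clock and ER stress genes gave few calls or none. Of 17 clock genes 0 were called either way of scaling, with Dbp, a clock output gene, at 41.3, 43.2, 50.7, 37.9 and 36.8 RPKM in heterozygous-partner livers and at 34, 33.8, 39.9, 41 and 47.2 RPKM in old-partner livers. Of 25 ER chaperone and unfolded protein genes 3 fell as deposited and 0 scaled, against 22.7 and 6.44% of all genes. Their medians were -0.21 and -0.04, and 0 fell without both libraries numbered 4. Hspa5, the main ER chaperone, was at 69.4, 57.5, 44.3, 61.8 and 71.5 RPKM in heterozygous-partner livers and at 71.5, 76.7, 94, 52.8 and 56.4 RPKM in old-partner livers, with the groups overlapping (-0.19 ± 0.19, adjusted p = 0.452). Of 14 heat shock genes 0 were called.

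The WT-partner livers show where a heterozygous partner differed from a WT one. The comparisons of both kinds of young partner with an old partner share the old-partner livers, so their values are given side by side and only the direct test of heterozygous-partner against WT-partner livers is read. That test called 288 genes higher (3.07%) and 2777 lower (29.6%) as deposited, and 837 (8.93%) and 893 (9.53%) scaled. Leaving out heterozygous-partner replicate 4 gave 205 higher and 1752 lower as deposited, and 517 and 475 scaled. Leaving out WT-partner replicate 4, which held skeletal muscle transcripts, gave 291 and 3160 as deposited, and 890 and 922 scaled. The list counts of this test were not repeated without either library. WT-partner against old-partner livers had 70 higher (0.747%) and 40 lower (0.427%) as deposited, and 106 (1.13%) and 69 (0.736%) scaled. Manf averaged 7.12 ± 1.81 RPKM in heterozygous-partner livers and 17.6 RPKM in WT-partner livers (-1.27, exact two-sided permutation p = 0.00794, n = 5 each). Against old-partner livers its log2 difference was -0.29 (exact two-sided permutation p = 0.262). All of these are WT livers, and many ER chaperone genes were lower in the same direct test, as given below.

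Few cholesterol synthesis genes were called between both kinds of young partner. Of 19 tested, 2 were higher in heterozygous-partner than in WT-partner livers as deposited and 3 scaled. Tm7sf2 was among them (0.47 ± 0.18, adjusted p = 0.0468). Sqle differed by 0.73 ± 0.48 (adjusted p = 0.244) and Hmgcs1 by 0.17 ± 0.34 (adjusted p = 0.727). Against old-partner livers the list's median was 0.82 with a heterozygous partner and 0.55 with a WT partner, where 15 and 0 of 19 rose. Stard4 (0.78, adjusted p = 0.00139), Tmem97 (0.61, adjusted p = 0.00129), Cyp1a2 (0.71, adjusted p = 0.0147) and Slc10a1 (0.55, adjusted p = 0.00675) were higher with a heterozygous than with a WT partner. Mup1 was not called (0.15 ± 0.75, adjusted p = 0.895): its log2 difference from old-partner livers was 2.82 with a heterozygous and 2.67 with a WT partner.

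As deposited, most tested members of the type I interferon, macrophage, stellate cell and collagen lists were lower with a heterozygous than with a WT partner, beside 29.6% of all genes. Type I interferon-stimulated genes were lower in 28 of 29 cases as deposited and 13 scaled, with Isg15 at -1.06 (adjusted p = 0.00572), beside a median of -0.80 with a heterozygous and -0.15 with a WT partner against old-partner livers. Kupffer cell markers were lower in 14 of 18 cases as deposited and 12 scaled, with Clec4f at -0.84 (adjusted p = 0.00634) and Adgre1 at -1.49 (adjusted p = 0.00545). Stellate cell markers were lower in 17 of 19 cases as deposited and 10 scaled, and collagens in 7 of 11 and 6 scaled. Sinusoidal endothelial markers were lower in 17 of 23 cases as deposited and 12 scaled. MHC class I genes were lower in 3 of 18 cases as deposited and 0 scaled, interferon gamma GTPases in 3 of 11 and 0, chemokines in 3 of 13 and 1, and genes of cytokines and adhesion in 4 of 13 and 1. MHC class II genes were lower in 3 of 6 cases as deposited and 0 scaled, with H2-Aa at -1.15 ± 0.45 (adjusted p = 0.0528). No B cell marker of 5 was called, with Cd79a at -0.58 (adjusted p = 0.0988), and Clec7a did not pass (-0.59, adjusted p = 0.155).

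Clock and ER chaperone genes, which gave few calls against old-partner livers, were among those that differed between both kinds of young partner. Of 17 clock genes 12 were higher and 3 lower in heterozygous-partner than in WT-partner livers, both as deposited and scaled. Dbp averaged 42.0 RPKM in heterozygous-partner livers and 11.5 RPKM in WT-partner livers, where old-partner livers had 39.2 RPKM (2.11 ± 0.35, adjusted p = 0.000399). Arntl, which encodes the clock activator BMAL1, averaged 0.17 RPKM in heterozygous-partner livers and 1.74 RPKM in WT-partner livers, where old-partner livers had 0.287 RPKM (-1.73 ± 0.16, adjusted p = 2.22e-06). The labels give no hour of collection, and time of day and partner cannot be told apart. Of 25 ER chaperone and unfolded protein genes 1 was higher and 18 lower as deposited, and 1 and 13 scaled. Hspa5 averaged 60.9 RPKM in heterozygous-partner livers and 127 RPKM in WT-partner livers, where old-partner livers had 70.3 RPKM (-1.07 ± 0.19, adjusted p = 0.000529). Of 14 heat shock genes 9 were lower as deposited and 6 scaled. Of 10 female-biased genes 6 were higher as deposited (median 1.95) and 7 scaled, and of 28 CAR and PXR genes 10 both ways. Of all genes 3.07% were higher and 29.6% lower as deposited, and 8.93 and 9.53% scaled.

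**Figure D5:**
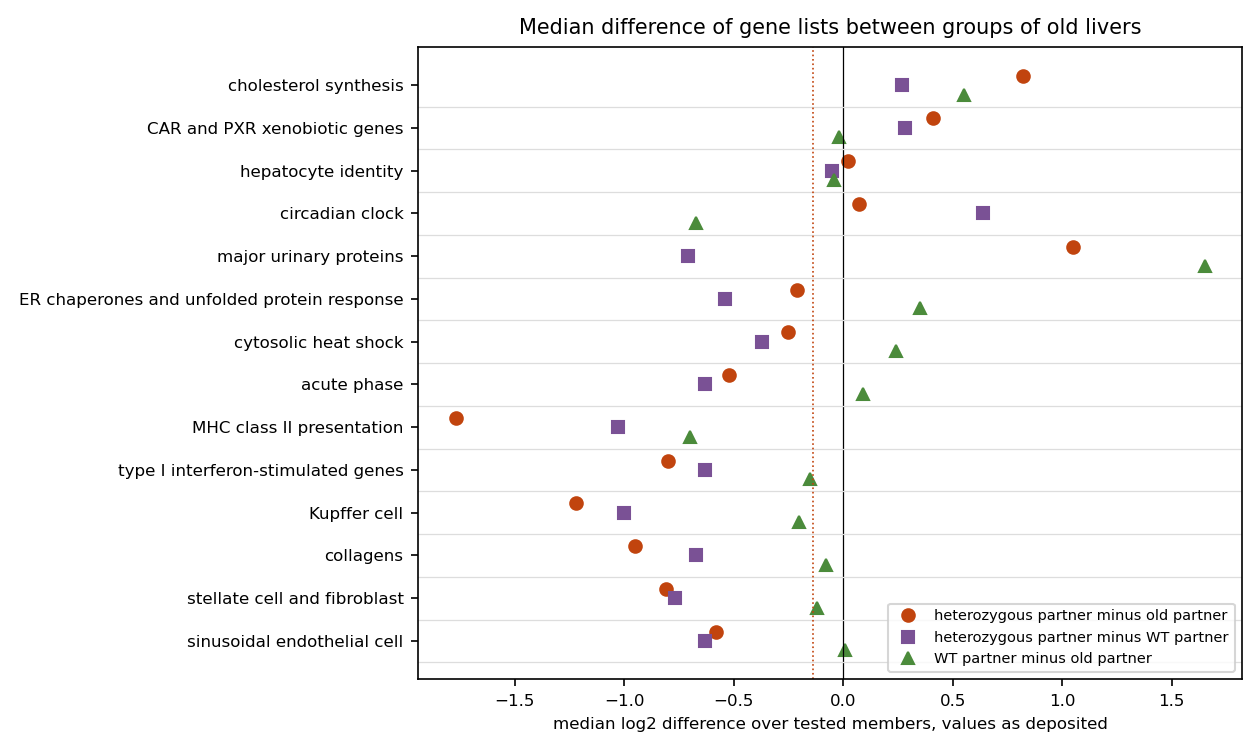
Median log2 difference over the tested members of 14 gene lists, as deposited, for heterozygous-partner minus old-partner livers (circles), heterozygous-partner minus WT-partner livers (squares) and WT-partner minus old-partner livers (triangles). The dotted line is the median of all genes for the circles, -0.14. The clock list lies at 0.07, 0.64 and -0.67 and the cholesterol list at 0.82, 0.27 and 0.55.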

How the data were processed

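Liver RNA (flash-frozen tissue, Trizol, TruSeq Stranded mRNA libraries, per the labels' protocols) was analysed from 1 deposited table of RPKM that the authors computed. Per the submitters' processing notes the tools were STAR 2.4.2a and HTSeq with mm10. How strands and reads that match several genes were counted is not given in the sources used here, so near-identical genes (Mup, Cyp2c, Ugt1a and H2 families) and overlapping antisense genes are uncertain. Replicates are animals per the design text.

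Of 60354 rows 24132 held values; 1 infinite row (Plin2) and 24 rows named by a date number were left out. Read totals were recovered from the spacing of low RPKM with GENCODE M21 exon lengths: 13652 of 16721 genes (81.6%) came out whole within 0.02 reads in every library. Since this left genes that were not whole, no count test was run. Precision is limited by 5 livers per group.

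Log2(RPKM + 0.5) was fitted with limma 3.58.1 (R 4.3.3) as a model of 5 groups over 25 libraries (trend by intensity, 20 residual degrees of freedom), as deposited and after median-of-ratios scaling, with Benjamini-Hochberg adjustment and a threshold of 0.05. The fits were tested on simulated data with independent noise per gene and the same spread in every group. The simulation held no library that stood apart, so it does not bear on the effect of such libraries. Manf was compared by exact permutation over 252 assignments. Members, the 47 gene lists, tests and motifs were chosen with earlier results of these data known. Named were Manf, the 12 largest changes per direction among genes called both ways with a mean of at least 1 RPKM (predicted genes left out), and up to 4 members per list by lowest p; other list members are named with their values. A few genes that enter the list counts are not reported here. Adgre5, D930048N14Rik, Ifi203, Pilrb1 and Etv5 were named after their values were seen. Alternatives covered the added constant, the filter, the scaling, the libraries in the model, weights, a replicate block and the omission of each library. Leaving out both libraries numbered 4, and Alb from the read total, was chosen after seeing the data. Promoters are RefSeq sequences. Figures were drawn with Python 3.11.15 and matplotlib 3.10.9.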

Additional observations from a re-analysis of the deposited data

Results flagged for a closer look

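For each named gene and each list score drawn by library, a liver was marked where its gap to the nearest other liver of its group took more than 0.71 of the group's range on the log2(RPKM + 0.5) scale. In groups of 5, chance marks about 1 in 20. The genes and lists here were selected and many move together, so the count that follows is not a test against that rate. Of 252 groups tested, 34 had such a liver, and replicates 4 of both groups and old-partner replicate 3 account for most of them.

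Heterozygous-partner replicate 4 was low in 14 cases, most of them genes of macrophages. It held Adgre1 at 0.822, Vsig4 at 5.71, Clec4f at 11.4, C1qb at 11.3, Lyz2 at 13.1, Tyrobp at 7.61, Lgals3 at 1.22 and Ctss at 7.72 RPKM, against at least 3.57, 16.4, 23.6, 27.3, 34, 16.2, 2.19 and 19.5 RPKM in the rest of its group. It also held Abcg1 at 0.346, Tgfb1 at 0.551, Il18bp at 2.01 and Mylip at 1.6 RPKM. Its list scores were 2.41 for Kupffer cells and 1.5 for sinusoidal endothelium. Old-partner replicate 4 was high in 5 cases, with Ccl2 at 10.3, Cd79a at 8.6, Clec7a at 15, H2-DMa at 11.4 and Vcam1 at 6.53 RPKM.

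Old-partner replicate 3 was low in 9 cases, most of them genes of sterol and lipid synthesis. It held Sqle at 0.916, Nsdhl at 3.71, Cyp51 at 6.16, Pmvk at 9.4, Sc5d at 30.8, Rdh11 at 4.65, Scd1 at 476 and Stat2 at 9.74 RPKM, and its cholesterol synthesis score was 3.1, against 3.68 to 3.91 in the rest of its group.

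Single livers were set apart in 6 other cases. Among heterozygous-partner livers these were Col5a2 in replicate 1 at 0.455, Srebf2 in replicate 2 at 8.64, Cyp2c29 in replicate 2 at 285 and Arntl in replicate 5 at 0.47 RPKM. Among old-partner livers they were Ddx58 in replicate 2 at 4.69 and Cyp1a2 in replicate 5 at 188 RPKM.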

How the results depend on the processing

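Genes higher (85) and lower (2126) as deposited came to 56 and 760 at 5 RPKM or more, 331 and 604 with median-of-ratios and 194 and 693 with upper-quartile scaling, and 18 and 419 without both libraries numbered 4. The lower genes were 3317 with no filter, 1346 with only the groups compared and 1244 where the read total leaves out Alb. Over the omissions of a single library they ranged from 45 to 116 higher and 1166 to 2683 lower, with 1166 without heterozygous-partner replicate 4 and 1273 without old-partner replicate 4. The scaled counts (331 and 604) came to 220 and 143 at 5 RPKM or more, 110 and 131 with only the groups compared, 194 higher with upper-quartile scaling, 1261 lower with no filter, and 0 and 6 without both libraries. The omissions gave 95 to 399 higher and 231 to 644 lower. Genes changed against WT-partner livers (3065) came to 1444 at 5 RPKM or more, 1730 and 1707 with median-of-ratios and upper-quartile scaling, 1993 without Alb in the total, and 1957 to 3486 over the omissions. Fewer genes tested or fewer livers enter some of these fits. For the scalings the cause was not tested.

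Livers of both groups with the same replicate number did not deviate together. Whether the numbers mark a young partner or a batch was not tested. The correlations of same-numbered livers ran from -0.27 to 0.05, and 0 of 5 correlated best with its own number. With a replicate block 79 genes were higher and 1954 lower as deposited, and 289 and 555 scaled.

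Of 96 named genes called as deposited, 87 were called scaled and 54 without both libraries numbered 4. Signs turned only for genes not called: Col18a1 (0.14 scaled, -0.06 to 0.01 over the omissions), H2-K1 (0.07 scaled, -0.18 to 0.01) and Marco (-0.59 to 0.31, and 0.05 without both libraries numbered 4). With 5 livers a group and replicate 4 extreme in both, smaller changes may be missed.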
